A study of Drosophila melanogaster with 13 samples.

Results

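Ommochrome pigment genes and genes of pigment granule traffic were followed in adult heads of Drosophila melanogaster across 4 genotypes. A gene was included when the platform annotation gave a probe set (short oligonucleotides read as 1 signal for a transcript) its symbol alone, and this held for all 10 listed genes, each with 1 probe set, among 11982 genes measured. In RefSeq's Release 6 annotation of the fly, g, rb, cm, car and dor lie on X, st on 3L, cd and kar on 3R, and cn and or on 2R. RNA of whole heads was hybridised to Affymetrix expression arrays, with 3 biological replicates per genotype per the labels and values from 12 arrays. The control genotype was yw; +/CyO. The egg mutant was yw; egg235/CyO, with a mutant chromosome for egg, the fly SETDB1 homolog. The Su(var)3-9 mutant was yw; +/CyO; Su(var)3-906, with a mutation in the fly SUV39H homolog, and the double mutant was yw; egg235/CyO; Su(var)3-906. The zygosity of Su(var)3-906 and the age, sex and number of the flies were not given in the sources used here. Every genotype, the control included, thus carried the CyO balancer chromosome, which by its standard description bears mutant alleles of cn and of the pteridine gene pr, and the yw background, by convention mutations in yellow and white. The annotation named no probe set for egg, Su(var)3-9 or white, so these genes were not analysed here and the genotypes were not checked by the mutated genes.

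Fly eyes are coloured by brown ommochromes and red pteridines, which are stored in pigment granules, organelles related to lysosomes. Ommochromes are made from tryptophan through kynurenine and 3-hydroxykynurenine. Granule proteins reach the organelle through the AP-3 adaptor complex, and the HOPS complex tethers vesicles before fusion. Loss of any of these steps changes eye colour, and many of the classical eye colour mutants lie in them. The granule traffic complexes also act in cells without pigment, so their transcripts in whole heads come from more than pigment cells.

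The control heads stood apart from the mutant heads in transcripts of other body parts, which bears on every comparison with the control. Counts of marker genes called against the control (limma adjusted p under 0.05) stand beside the shares of all probe sets. These were 32.0%, 44.4% and 40.4% higher and 18.9%, 17.3% and 17.3% lower in the egg, Su(var)3-9 and double mutants. Testis markers had 17, 17 and 16 of 18 genes lower in these mutants than in the control. The log2 of their summed signal was 14.06 to 14.64 on control arrays, 11.81 to 11.95 with the egg mutation, 9.00 to 9.70 with the Su(var)3-9 mutation and 9.51 to 10.80 with both. Summed signals of 15 gut genes were 15.45 to 15.87 in the control and at most 14.28 in any mutant, and those of 10 muscle genes 16.04 to 16.43 against at most 14.92. Neuronal markers ran the other way, with a summed signal of 11 genes of 13.60 to 13.86 on control arrays, 14.55 to 14.64 with the egg mutation, 14.25 to 14.35 with the Su(var)3-9 mutation and 14.39 to 14.47 with both. Glial markers had 6, 4 and 5 of 6 genes higher, with summed signals of 13.16 to 13.34 on control arrays and 13.60 to 14.05 in the mutants. Photoreceptor genes, 12 in number, had summed signals of 16.09 to 16.34 on control arrays and 16.68 to 16.71 with the egg mutation, but those with the Su(var)3-9 mutation (16.23 to 16.28) lay inside the control range and those with both reached 16.39 to 16.44. By the median of the 12 genes on each array, however, the Su(var)3-9 arrays (11.77 to 11.95) lay above the control arrays (11.42 to 11.69). Of these genes 12, 7 and 10 were higher than in the control in the egg, Su(var)3-9 and double mutants. The 7 of 12 in the Su(var)3-9 mutant is not far above the share of all probe sets. Malpighian tubules, which also use the ommochrome pathway, had 4, 5 and 5 of 6 marker genes lower and 1 higher (Best2). Their summed signals were 10.73 to 10.85 on control arrays and 10.46 to 10.73 in the mutants. The median of the 6 genes differed more, at 7.13 to 7.60 on control arrays and 5.57 to 6.56 on mutant arrays. Fat body markers had 1, 5 and 3 of 7 genes higher and 1, 0 and 0 lower, and the 3 of 7 is near the share of all probe sets. Their summed signals were 15.91 to 16.14 on control arrays and 16.26 to 16.34 with the Su(var)3-9 mutation. Those with the egg mutation (16.05 to 16.09) and with both (16.11 to 16.14) lay inside the control range. Summed signals of 8 ovary genes were 9.79 to 10.54 on control arrays and 8.17 to 11.89 with the egg mutation, whose arrays thus differed among themselves. They were 8.32 to 8.47 with the Su(var)3-9 mutation and 7.90 to 8.06 with both. By the median of the 8 genes, the Su(var)3-9 arrays (5.14 to 5.47) did not lie below the control arrays (4.88 to 5.13). Accessory gland markers had 11, 12 and 12 of 13 genes lower than in the control. Their summed signals were 14.45 to 14.96 on control arrays, 12.61 to 13.05 with the egg mutation, 8.79 to 10.25 with the Su(var)3-9 mutation and 9.78 to 11.52 with both. In these markers Su(var)3-9 replicate 3 and replicate 2 of the double mutant stood apart within their groups. The accessory gland gene Acp36DE read 6.29 on the former against 3.66 and 3.51 on its fellow arrays, and 7.86 on the latter against 4.70 and 5.29. The gut gene Jon65Aiv read 8.83 on the former against 5.51 and 4.82, and 8.77 on the latter against 4.85 and 6.98. Another gut gene, Jon44E, stood apart less on the latter (5.07 against 4.81 and 4.57). With both arrays left out, the calls of kar and or in the double mutant were lost and cn gained a call there, and the interaction term of cm was lost (limma adjusted p = 0.08). The part of these differences in the results on pigment genes was not tested, and in whole heads fewer cells of a type and less RNA per cell cannot be told apart.

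Most of the 10 genes were higher in every mutant than in the control. In the egg mutant 7 rose, 1 fell and 2 did not pass the test, where 32.0% of all probe sets were called higher and 18.9% lower (limma across all 18769 probe sets, Benjamini-Hochberg adjusted p under 0.05). In the Su(var)3-9 mutant 8 rose and 2 did not pass, against 44.4% of all probe sets called higher and 17.3% lower. In the double mutant 8 rose and 2 did not pass, against 40.4% and 17.3%. The median log2 change of the 10 genes was 0.38, 0.50 and 0.56 in these comparisons, beside medians over all probe sets of 0.09, 0.21 and 0.18. All 9 mutant arrays lay above all 3 control arrays for 7 genes (cd, kar, g, rb, cm, or and car), and for 27.1% of all probe sets. These comparisons share the control arrays, so a low control value enters all 3.

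**Figure D1:**
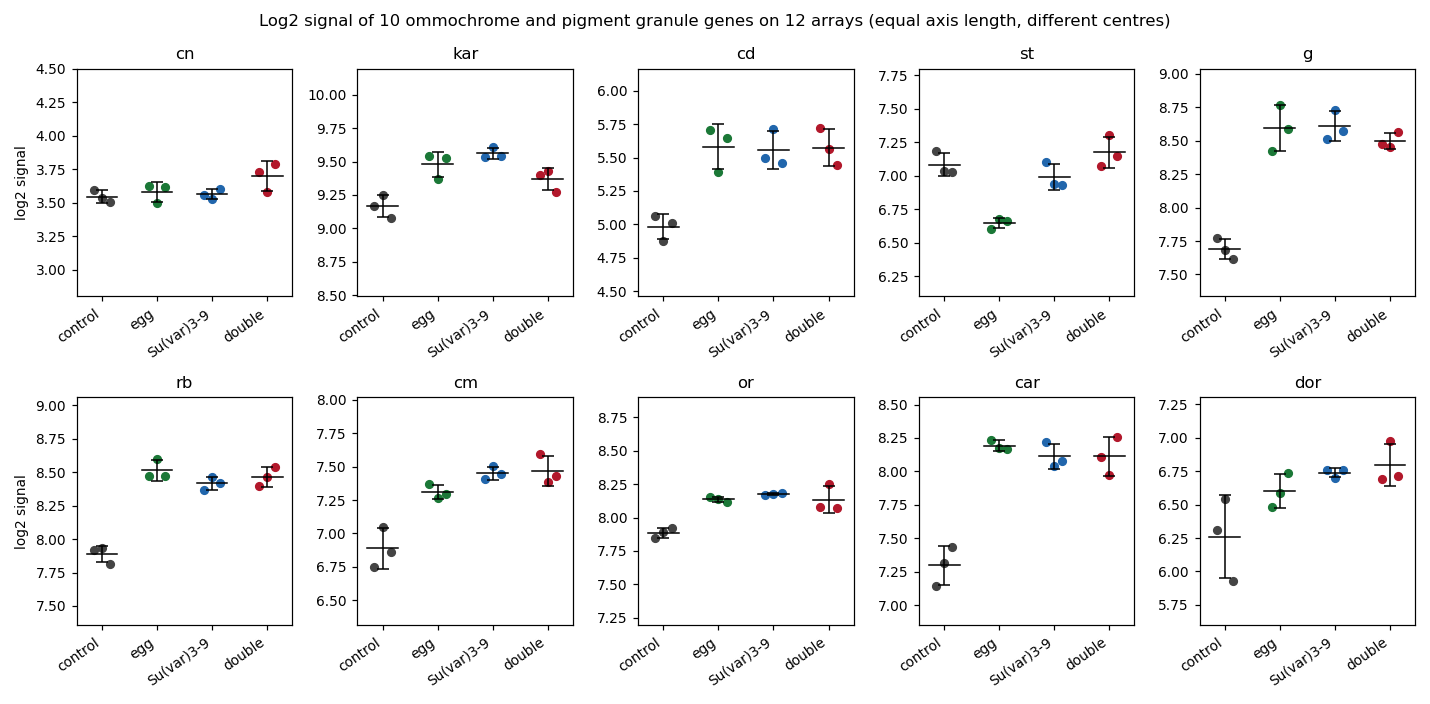
Log2 signal (vertical axes of equal length with different centres) of the 10 genes on each of the 12 arrays, by genotype; points are arrays, long bars are means and whiskers are standard deviations (n = 3 per genotype). The points of g, rb and car show mutant arrays at 7.97 or higher and control arrays at 7.93 or lower, while st is lowest in the egg mutant at 6.60 to 6.67.

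The 4 subunits of AP-3 rose in all 3 mutants on the deposited values, garnet most. The gene garnet (g) encodes the large delta subunit of the adaptor. Its log2 signals were 7.77, 7.69 and 7.61 in the control, 8.43, 8.77 and 8.59 in the egg mutant, 8.52, 8.73 and 8.57 in the Su(var)3-9 mutant and 8.48, 8.45 and 8.57 in the double mutant. Every mutant array was thus at least 0.66 above the highest control array, and the mutants overlapped each other. Against the control, g rose by 0.90 ± 0.09 in the egg mutant (log2 change ± standard error, n = 3 per group, limma adjusted p = 5.69e-06), by 0.92 ± 0.09 in the Su(var)3-9 mutant (adjusted p = 4.17e-06) and by 0.81 ± 0.09 in the double mutant (adjusted p = 1.32e-05). These are 1.87-fold, 1.89-fold and 1.75-fold higher signals.

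The gene ruby (rb) encodes the other large subunit of the same adaptor, beta. Its signals were 7.92, 7.93 and 7.82 in the control, 8.47, 8.60 and 8.47 in the egg mutant, 8.37, 8.46 and 8.42 in the Su(var)3-9 mutant and 8.39, 8.46 and 8.54 in the double mutant. The lowest mutant array was 0.43 above the highest control array. The changes were 0.62 ± 0.07 (limma adjusted p = 1.31e-05), 0.53 ± 0.07 (adjusted p = 5.30e-05) and 0.58 ± 0.07 (adjusted p = 2.45e-05) in the same order of mutants. Carmine (cm), the medium mu subunit, which recognises cargo, read 6.75, 7.05 and 6.86 in the control, 7.37, 7.27 and 7.30 in the egg mutant, 7.41, 7.50 and 7.44 in the Su(var)3-9 mutant and 7.60, 7.38 and 7.43 in the double mutant. Control and mutant arrays of cm did not overlap, and the egg mutant arrays were the lowest of the mutants. It rose by 0.42 ± 0.09, 0.56 ± 0.09 and 0.58 ± 0.09 (limma adjusted p = 0.00133, 0.000159 and 0.00012).

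Orange (or), the small sigma subunit, had the smallest changes of the complex, and the narrowest spread in every genotype but the double mutant, where its standard deviation of 0.10 exceeded those of g (0.058) and rb (0.074). Its signals were 7.84, 7.89 and 7.92 in the control, 8.15, 8.14 and 8.12 in the egg mutant, 8.17, 8.17 and 8.19 in the Su(var)3-9 mutant and 8.08, 8.25 and 8.07 in the double mutant. All mutant arrays were above the control by 0.15 or more. The changes of 0.25 ± 0.07, 0.29 ± 0.07 and 0.25 ± 0.07 passed (limma adjusted p = 0.00764, 0.00296 and 0.00786). The call in the double mutant was lost when Su(var)3-9 replicate 3 was left out along with replicate 2 of the double mutant (adjusted p = 0.0505). In the egg mutant the 95% intervals of the changes were 0.70 to 1.11 for g, 0.47 to 0.78 for rb and 0.10 to 0.40 for or, and in the double mutant 0.60 to 1.02 for g and 0.10 to 0.40 for or. These come from different probe sets, and the difference between subunits was not tested.

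The subunits of HOPS included here differed in how evenly they moved. Carnation (car) encodes Vps33A, the SM protein that promotes membrane fusion, and its probe set carries the suffix of sets whose probes can match several transcripts. Its signals were 7.15, 7.32 and 7.44 in the control, 8.24, 8.17 and 8.17 in the egg mutant, 8.22, 8.04 and 8.08 in the Su(var)3-9 mutant and 8.10, 7.97 and 8.26 in the double mutant. The gap between the highest control and the lowest mutant array was 0.54. It rose by 0.89 ± 0.10, 0.81 ± 0.10 and 0.81 ± 0.10 (limma adjusted p = 6.81e-06, 1.38e-05 and 1.40e-05).

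Deep orange (dor) encodes Vps18, a core subunit shared by HOPS and CORVET. It read 6.31, 6.54 and 5.93 in the control, 6.48, 6.58 and 6.74 in the egg mutant, 6.76, 6.70 and 6.76 in the Su(var)3-9 mutant and 6.69, 6.97 and 6.71 in the double mutant. Control replicate 2 lay inside the range of the egg mutant, and the control's standard deviation of 0.31 was the largest of any group of these genes. The change passed in the Su(var)3-9 mutant (0.48 ± 0.14, limma adjusted p = 0.00896) and in the double mutant (0.53 ± 0.14, adjusted p = 0.00494). Without control replicate 3 the former change was 0.31, still past the threshold. In the egg mutant dor changed by 0.34 ± 0.14 and did not pass (adjusted p = 0.0527). It passed there without control replicate 2 (adjusted p = 0.00706), without double mutant replicate 2 (adjusted p = 0.0478), with trend and robust priors (adjusted p = 0.0416), with dim probe sets left out (adjusted p = 0.041) and with array weights (adjusted p = 0.013).

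**Figure D2:**
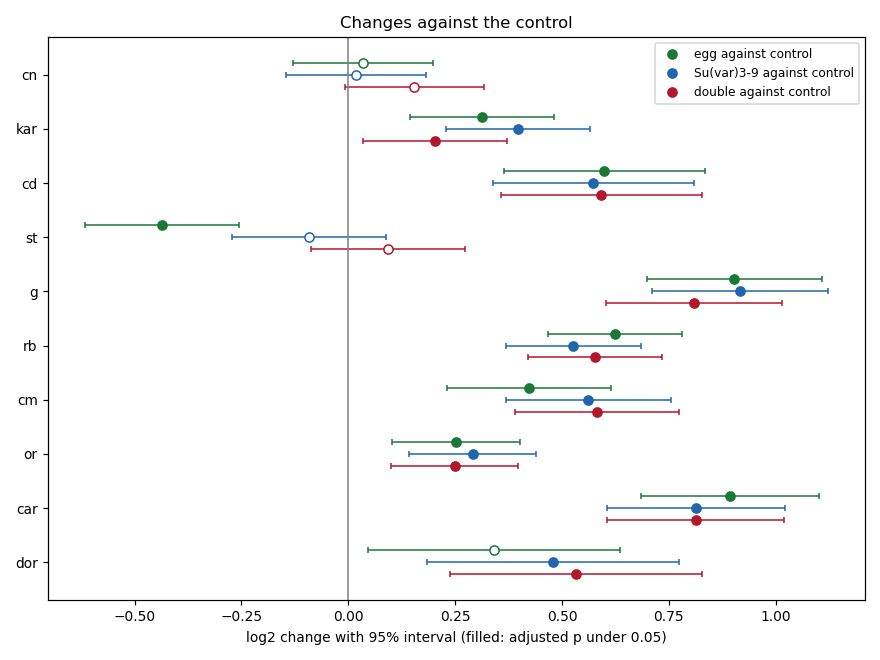
Log2 change against the control (horizontal axis) of the 10 genes, with 95% intervals from the fit across all probe sets; colours are the 3 mutants (n = 3 arrays per group) and filled points have an adjusted p under 0.05. The intervals of g and car lie above 0.60 in every mutant, those of or between 0.10 and 0.44, and the interval of st lies wholly below 0 in the egg mutant (-0.61 to -0.25) and spans 0 in the other mutants.

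The genes that make or move the pigment itself did not form a single pattern. Cinnabar (cn) encodes kynurenine 3-monooxygenase, the enzyme that makes 3-hydroxykynurenine. It was among the dimmest probe sets of the array, with a mean of 3.60 at the 3.61 percentile of all probe sets, and the table gives no detection calls. Its signals were 3.60, 3.53 and 3.50 in the control, 3.63, 3.50 and 3.61 in the egg mutant, 3.56, 3.53 and 3.60 in the Su(var)3-9 mutant and 3.73, 3.58 and 3.79 in the double mutant. No pair of groups was separate, and no change passed, with 0.04 ± 0.08, 0.02 ± 0.08 and 0.15 ± 0.08 against the control (limma adjusted p = 0.742, 0.83 and 0.0955). The last of these passed without double mutant replicate 2 (0.22, adjusted p = 0.0333), also when Su(var)3-9 replicate 3 was left out with it (adjusted p = 0.044). The interval of the change in the egg mutant ran from -0.13 to 0.20.

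Cardinal (cd) encodes a haem peroxidase thought to join 3-hydroxykynurenine into the pigment xanthommatin. Its signals were 5.06, 4.88 and 5.01 in the control, 5.71, 5.39 and 5.65 in the egg mutant, 5.49, 5.72 and 5.46 in the Su(var)3-9 mutant and 5.72, 5.56 and 5.45 in the double mutant. All 9 mutant arrays were above the control by 0.33 or more and the mutants overlapped. The rises were nearly equal, at 0.60 ± 0.11, 0.57 ± 0.11 and 0.59 ± 0.11 (limma adjusted p = 0.000451, 0.000642 and 0.000508). Karmoisin (kar), a predicted monocarboxylate transporter, was the brightest of the 10 probe sets. It read 9.17, 9.25 and 9.08 in the control, 9.54, 9.37 and 9.52 in the egg mutant, 9.53, 9.61 and 9.54 in the Su(var)3-9 mutant and 9.40, 9.43 and 9.28 in the double mutant. The groups did not overlap with the control, but the lowest double mutant array was only 0.03 above the highest control array.

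The changes of kar were 0.31 ± 0.08 in the egg mutant (limma adjusted p = 0.00436), 0.40 ± 0.08 in the Su(var)3-9 mutant (adjusted p = 0.000837) and 0.20 ± 0.08 in the double mutant (adjusted p = 0.04). The last call was fragile. It was lost without control replicate 1 or 3, egg replicate 3, Su(var)3-9 replicate 1 or 3, or double mutant replicate 1 or 2 (adjusted p = 0.0505 to 0.125), with the replicate number as a block (adjusted p = 0.0562), with only the groups compared in the fit (adjusted p = 0.0882), with array weights (adjusted p = 0.0596) and with Su(var)3-9 replicate 3 and double mutant replicate 2 left out together (adjusted p = 0.134).

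Scarlet (st) was the only one of the 10 genes that fell in a comparison with the control. It encodes the ABC transporter subunit that pairs with White to load ommochrome precursors into the granule. Its signals were 7.18, 7.03 and 7.03 in the control, 6.60, 6.67 and 6.66 in the egg mutant, 7.10, 6.94 and 6.93 in the Su(var)3-9 mutant and 7.08, 7.30 and 7.15 in the double mutant. The 3 egg mutant arrays were below all 9 others, and the other 3 genotypes overlapped. In the egg mutant st fell by 0.43 ± 0.08 on the log2 scale (0.74-fold, limma adjusted p = 0.000676). The Su(var)3-9 mutant, at -0.09 ± 0.08, and the double mutant, at 0.09 ± 0.08, did not pass (adjusted p = 0.342 and 0.349), with intervals of -0.27 to 0.09 and -0.09 to 0.27. Summed signals of neuronal and photoreceptor markers were highest in that same egg mutant. All 11 and all 12 of their genes rose there against the control, where 32.0% of all probe sets were higher. Single markers could be higher in the double mutant, as eya was (8.89 against 8.68). The part of these differences in the fall of st was not tested.

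Between mutants, st accounted for every call among the 10 genes. The double mutant, which adds Su(var)3-906 to the egg mutant's genotype, had 1 of the 10 genes higher and none lower than the egg mutant, where 7.91% of all probe sets were higher and 7.62% lower. This was st, which rose by 0.53 ± 0.08 (limma adjusted p = 0.00102). Against the Su(var)3-9 mutant the double mutant differed in 0 of the 10 genes (limma, where 5.17% of all probe sets were called, 2.55% higher and 2.63% lower), with 2 at an unadjusted p under 0.05. These were kar (-0.19 ± 0.08, adjusted p = 0.21) and st (0.18 ± 0.08, adjusted p = 0.27), and the arrays of kar were separate in this pair. The egg mutant had 1 gene lower than the Su(var)3-9 mutant and none higher, against 13.9% and 13.4% of all probe sets. This again was st, which fell by 0.34 ± 0.08 (adjusted p = 0.00867). In the order of levels st thus ran from the egg mutant over the Su(var)3-9 mutant and the control to the double mutant, and only the step above the egg mutant exceeded the spread.

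For the other genes the order among mutants was not resolved. Over the 9 genes other than st the 95% intervals of the differences between mutants reached from -0.43 to 0.49, both bounds being those of dor. For g they ran from -0.30 to 0.11 for the double mutant against the egg mutant and from -0.22 to 0.19 for the egg mutant against the Su(var)3-9 mutant. For car the double mutant differed from the Su(var)3-9 mutant by 0.00, with an interval of -0.21 to 0.21. Of the 18 testis genes 13 were lower in the double than in the egg mutant and 15 higher in the egg than in the Su(var)3-9 mutant, whereas in the double against the Su(var)3-9 mutant 1 was higher and 17 did not pass.

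**Figure D3:**
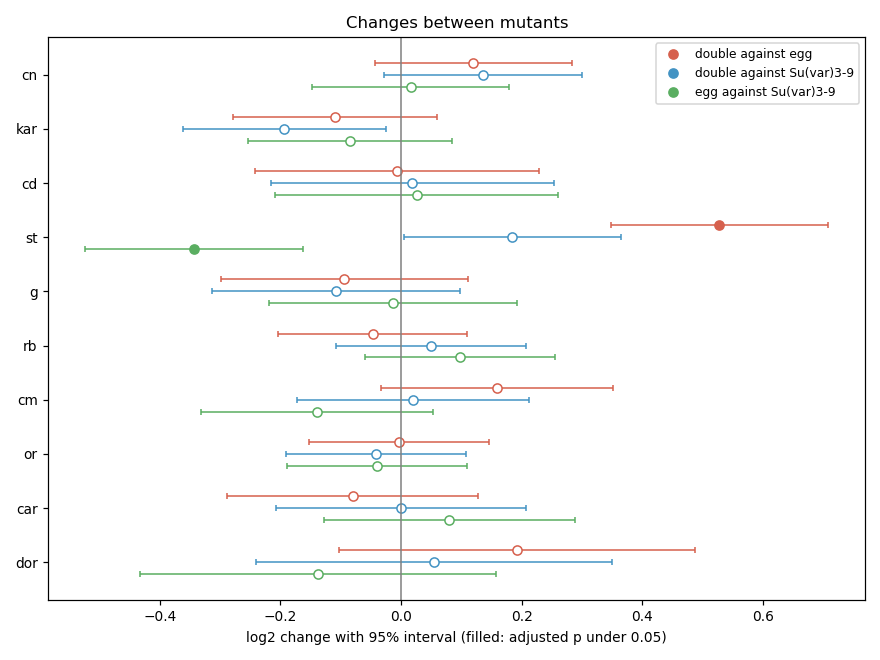
Log2 change between mutants (horizontal axis) of the 10 genes with 95% intervals; colours are the 3 pairs of mutants (n = 3 arrays per group) and filled points have an adjusted p under 0.05. Only st has filled points, at 0.53 where the double is set against the egg mutant and at -0.34 where the egg is set against the Su(var)3-9 mutant.

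The double mutant's change was also set against the sum of both single mutants' changes, as an interaction term in the same fit. For 7 of the 10 genes (cd, kar, g, rb, cm, or and car) the double mutant's change was smaller than the sum and for st it was larger, while cn and dor did not pass. Over all probe sets 40.6% had a called term, 24.9% below 0 and 15.8% above 0. For g the term was -1.01 ± 0.13 (limma adjusted p = 8.43e-05) and for st 0.62 ± 0.12 (adjusted p = 0.00111). The control enters this term with the same sign as the double mutant, and the part of its other-tissue transcripts in the term was not tested.

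Other genes of the ommochrome pathway and of pigment import, from a list of 6 names, were measured for 4. KFase encodes kynurenine formamidase, which acts upstream of cn, Kyat an enzyme that diverts kynurenine from the pigment, mah a predicted amino acid transporter of eye colour, and bw the transporter subunit that pairs with White for pteridine precursors. In the egg mutant none of these rose and 1 fell, although KFase and mah passed without control replicate 2 (limma adjusted p = 0.0282 and 0.0238), while in the Su(var)3-9 and double mutants 3 rose and 1 fell. Of all probe sets 32.0%, 44.4% and 40.4% were called higher and 18.9%, 17.3% and 17.3% lower in the 3 mutants, and these shares stand beside the counts of every list that follows. The gene mah read 4.24, 4.74 and 4.29 in the control, 4.56, 4.74 and 4.72 in the egg mutant, 5.63, 5.51 and 5.87 in the Su(var)3-9 mutant and 6.02, 5.57 and 5.84 in the double mutant. The last 2 groups were separate from the first 2, with rises of 1.25 ± 0.15 and 1.39 ± 0.15 against the control and of 1.13 ± 0.15 in the double against the egg mutant (limma adjusted p = 1.52e-05, 6.11e-06 and 0.000292). KFase rose by 0.71 ± 0.08 and 0.79 ± 0.08 against the control in the same genotypes, and by 0.63 ± 0.08 in the double against the egg mutant (adjusted p = 0.000231). These calls of mah and KFase held under all 4 scalings described below, and st was likewise higher in the double than in the egg mutant. The fat body markers Fbp1 and Fbp2 moved with them, but not the list as a whole. Fbp1 had means of 5.99 and 5.95 in the control and egg mutant but 9.89 and 8.97 in the Su(var)3-9 and double mutants. Those of Fbp2 were 6.57 and 6.39 but 10.20 and 9.97. Of 7 fat body markers 3 were higher, 1 lower and 3 without a call in the double against the egg mutant, with a median change of 0.09. Of all probe sets 7.91% were higher and 7.62% lower there. The part of fat body in the result was not tested. The gene that fell was Kyat, by 0.47 ± 0.06, 0.26 ± 0.06 and 0.37 ± 0.06 in the 3 mutants, but with arrays centred on their medians it changed by 0.11 and -0.02 in the Su(var)3-9 and double mutants and did not pass.

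The 2 probe sets of bw disagreed. The brighter, which stands for the gene in the counts, changed by 0.05 ± 0.11 in the egg mutant and rose by 1.07 ± 0.11 and 0.47 ± 0.11 in the Su(var)3-9 and double mutants. The dimmer rose in all 3, by 1.27 ± 0.14, 0.75 ± 0.14 and 1.65 ± 0.14 (limma adjusted p = 6.81e-06, 0.000454 and 5.67e-07). The egg mutant was thus below the Su(var)3-9 mutant by the brighter probe set (-1.02 ± 0.11) and above it by the dimmer (0.51 ± 0.14), and the order of bw among mutants is not settled. The pteridine genes pr, se and Pu, which act on the red pigment, were all higher in the double than in the egg mutant, by 0.51 ± 0.09, 0.69 ± 0.10 and 0.48 ± 0.09 (limma adjusted p = 0.00157, 0.000516 and 0.00326). Of all probe sets 7.91% were higher in that pair. Against the control 1, 3 and 3 rose in the egg, Su(var)3-9 and double mutants, with medians of 0.22, 0.97 and 0.79. Of all probe sets 32.0%, 44.4% and 40.4% were higher there. In the double against the Su(var)3-9 mutant se was lower by 0.46, where 2.63% of all probe sets were lower. That call was lost without Su(var)3-9 replicate 1 or 2 or double mutant replicate 1 or 3 (limma adjusted p = 0.0501 to 0.0633).

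Related traffic complexes were set beside AP-3 and HOPS. Of the AP-1 and AP-2 adaptors, which act at the Golgi and the plasma membrane, 6 subunits were measured, and 6, 5 and 6 rose in the egg, Su(var)3-9 and double mutants, with medians of 0.36, 0.34 and 0.36, where 32.0%, 44.4% and 40.4% of all probe sets were called higher. AP-2alpha had the largest changes of this list, at 0.74 ± 0.09, 0.83 ± 0.09 and 0.90 ± 0.09. AP-1gamma rose by 0.50 ± 0.10 in the egg mutant, AP-2sigma by 0.38 ± 0.06 in the Su(var)3-9 mutant and AP-2mu by 0.37 ± 0.07 in the double mutant. These are the largest changes of each gene, not rises particular to a mutant. AP-2sigma, AP-2mu and AP-1-2beta rose in all 3 mutants. Their mutant means were 10.44 to 10.52, 9.94 to 10.08 and 10.79 to 10.84 against control means of 10.13, 9.71 and 10.48. The call of AP-1gamma in the double mutant was lost without control or double mutant replicate 1 or 3 (limma adjusted p = 0.0824 to 0.159). It was also lost without egg or Su(var)3-9 replicate 3 (adjusted p = 0.0532 and 0.0513). In the Su(var)3-9 mutant AP-1gamma passed without control replicate 2 or egg replicate 2 (adjusted p = 0.00991 and 0.0435). AP-1sigma lost its call in the Su(var)3-9 mutant without replicate 1 of the control or of that mutant (adjusted p = 0.0514 and 0.0591). AP-2mu lost its call in the egg mutant without control replicate 1 (adjusted p = 0.0593). The counts fell to 1, 2 and 1 of 6 under cyclic loess, where AP-2alpha kept its calls.

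Among 7 measured partners and relatives of the HOPS and CORVET subunits, 5, 4 and 5 rose and none fell, beside 32.0%, 44.4% and 40.4% of all probe sets higher, and the 4 of 7 in the Su(var)3-9 mutant is near that background. Under cyclic loess 2, 3 and 3 rose and 1, 3 and 1 fell. Vps11 and Vps16A, HOPS subunits like dor, rose in all 3 mutants, Vps11 by 0.95 ± 0.09, 0.68 ± 0.09 and 0.86 ± 0.09 and Vps16A by 0.58 ± 0.08, 0.61 ± 0.08 and 0.62 ± 0.08. Vps39, a HOPS subunit, rose by 0.37 ± 0.10, 0.51 ± 0.10 and 0.45 ± 0.10, and Vps16B by 0.37 ± 0.11, 0.83 ± 0.11 and 0.69 ± 0.11. The call of Vps16B in the egg mutant was lost without egg replicate 1 or 3 (limma adjusted p = 0.0578 and 0.0752). The members without a call in any mutant, named after their values were seen, were Vps33B, the paralog of car, at -0.10, 0.05 and 0.03, and Vps8, a CORVET subunit, at 0.09, -0.07 and 0.11. Vps16A and Vps11, partners of dor in HOPS, kept their calls in all 3 mutants under each scaling.

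BLOC complexes, which also sort cargo to pigment granules, were measured by 4 subunits of BLOC-1, of which 1, 4 and 4 rose, beside 32.0%, 44.4% and 40.4% of all probe sets, and none passed in any mutant under cyclic loess. The 1 of 4 in the egg mutant is not above that background. The 4 in the Su(var)3-9 mutant became 2 without Su(var)3-9 replicate 1, when Pldn and Dysb lost their calls (limma adjusted p = 0.0532 and 0.061). Dysb also lost its call there without control replicate 1, and Pldn without control replicate 3 (adjusted p = 0.054 and 0.0535). The 1 in the egg mutant became 2, with Pldn, without control replicate 1 or without double mutant replicate 1 or 2 (adjusted p = 0.0237 to 0.045). Blos1 rose by 0.50 ± 0.08, 0.38 ± 0.08 and 0.43 ± 0.08, and Blos2 by 0.52 ± 0.09 in the Su(var)3-9 mutant. Blos2 also rose in the double mutant (mean 7.80 against 7.41 in the control) but not in the egg mutant (mean 7.56). Of 5 other granule traffic genes, 4, 3 and 5 rose beside the same shares of all probe sets, and under cyclic loess 0, 2 and 2 did. The gene lt (Vps41) is also among the HOPS and CORVET partners above, so its 1 probe set is counted in both lists. The 5 in the double mutant include hook, lost without control replicate 1 or 3 or double mutant replicate 2 or 3 (adjusted p = 0.0824 to 0.128), and lt, lost without double mutant replicate 1 (adjusted p = 0.052). The BLOC-2 subunit gene p rose by 0.47 ± 0.08, 0.51 ± 0.08 and 0.56 ± 0.08. The gene ca, a putative guanine nucleotide exchange factor of the pathway, rose by 0.51 ± 0.11 and 0.48 ± 0.11 in the egg and double mutants. In the Su(var)3-9 mutant ca rose by 0.33 ± 0.11, a call that was lost without control replicate 1 or 3 or Su(var)3-9 replicate 1 or 3 (limma adjusted p = 0.0685 to 0.0828). Rab32 (lightoid), the small GTPase of pigment granules, rose by 0.43 ± 0.10 and 0.48 ± 0.10 in the Su(var)3-9 and double mutants, and its 0.07 in the egg mutant did not pass except without control replicate 2 (0.19, adjusted p = 0.0378) and with arrays centred on their medians (0.30, adjusted p = 0.0233). It was higher in the double than in the egg mutant by 0.41 ± 0.10 (adjusted p = 0.011). The gene hook, an endosomal traffic factor, rose by 0.41 ± 0.09 in the egg mutant.

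**Figure D4:**
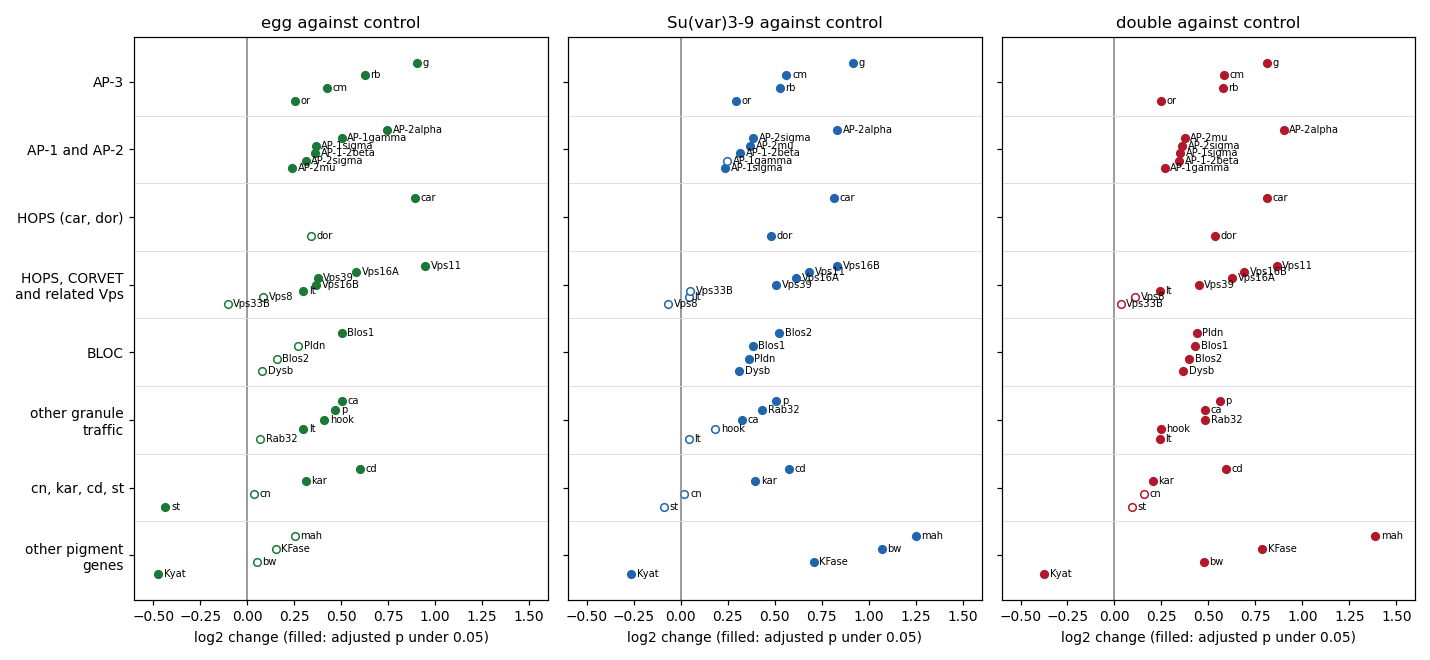
Log2 change against the control (horizontal axes) of the genes of AP-3, HOPS and the pigment pathway and of related lists (rows), 1 panel per mutant; each point is a gene's brightest probe set (n = 3 arrays per group), filled where the adjusted p was under 0.05. The points of g (0.81 to 0.92) and AP-2alpha (0.74 to 0.90) lie furthest right among adaptors, and in the row of other ommochrome genes mah, bw and KFase lie further right in the panels of the Su(var)3-9 and double mutants.

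The size of the changes against the control depended on how the arrays were scaled. With each array centred on its median, the median change over all probe sets went from 0.09, 0.21 and 0.18 to 0.32, 0.58 and 0.54 (egg, Su(var)3-9, double mutant), and with cyclic loess it was -0.01, 0.00 and 0.00. Of the 10 genes, g, rb and car rose in all 3 mutants under each of these scalings and under centring on brighter probe sets. Under cyclic loess g rose by 0.57, 0.62 and 0.49, car by 0.55, 0.50 and 0.48 and rb by 0.29, 0.22 and 0.25. The gene cm then changed by 0.09 without a call in the egg mutant and rose by 0.23 and 0.25 in the other mutants. In contrast, or turned to -0.09, -0.02 and -0.08 and kar to 0.00, 0.13 and -0.09, none of which passed.

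Under cyclic loess cd rose by 0.43 and 0.33 in the egg and double mutants, but at 0.29 in the Su(var)3-9 mutant it missed the threshold (limma adjusted p = 0.0554). The gene dor then did not pass in any mutant, at 0.05, 0.15 and 0.20. The fall of st in the egg mutant passed under every scaling, from -0.21 on the array median to -0.75 under cyclic loess. In the Su(var)3-9 mutant st turned from no call to a rise of 0.28 on the array median or a fall of 0.42 under cyclic loess, and in the double mutant to a rise of 0.45 or a fall of 0.24, so its direction there is not settled. With arrays centred on brighter probe sets, or lost its call in the egg mutant (0.14, limma adjusted p = 0.117) and the double mutant (0.15, adjusted p = 0.0965), and kar in the egg mutant (0.20, adjusted p = 0.0517) and the double mutant (0.10, adjusted p = 0.318). Only on the array median did cn pass, with 0.26, 0.39 and 0.51. Across these scalings 4 to 9 of the 10 genes rose with the egg mutation, 4 to 10 with the Su(var)3-9 mutation and 5 to 10 with both. The share of all probe sets called higher moved with the scaling too. On the array median most of all probe sets were called higher in the Su(var)3-9 and double mutants. The 10 of 10 there is therefore not read as a result about these genes. Under cyclic loess fewer of all calls were higher than lower.

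**Figure D5:**
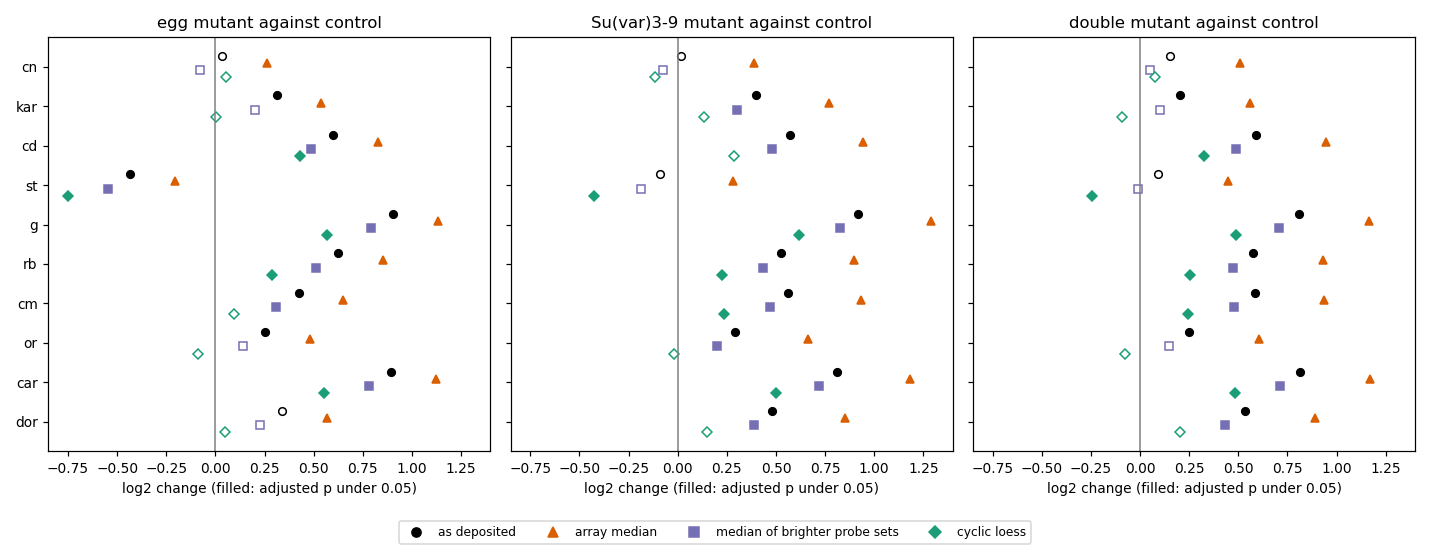
Log2 change against the control (horizontal axes) of the 10 genes under the deposited scaling and 3 other scalings of the same arrays (n = 3 per group), 1 panel per mutant; symbols and colours are the scalings and filled symbols have an adjusted p under 0.05. The symbols of g and car stay at 0.48 or higher in every panel, whereas those of or and kar lie near 0 under cyclic loess.

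Genes with the most similar course over the 12 arrays were looked up for the enzymes and transporters, as a description, since the control arrays stand apart and shape any such likeness. For st these were CG8468 (Pearson r = 0.97) and mino (r = 0.96), among 25 of 11981 other genes with r above 0.9. For cd they were Trs20 and CG8152 (r = 0.95 and 0.94), for kar udt and spict (r = 0.96 each), and for cn sob and CG8142 (r = 0.87 and 0.85). No gene exceeded 0.9 for cn.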

How the data were processed

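The authors deposited log2 expression values per probe set of whole-head RNA from Affymetrix arrays, made with RMA (background correction, quantile normalisation and probe summary), and limma was also used, per the submitters' processing notes. Versions and genome build are not given in the sources used here. Of 13 array columns 1, a second technical array of control replicate 1, held no values, which left 12. Probe sets were named by the platform annotation, with 13647 carrying 1 symbol, 402 several and 4720 none. After 183 Affymetrix controls were left out, 18769 probe sets entered limma 3.58.1 in R 4.3.3 with 4 genotype means (8 residual and 4.162 prior degrees of freedom) and Benjamini-Hochberg adjustment within each comparison, and a call is an adjusted p under 0.05. The limma script was tested on simulated data. Tables and plots used Python 3.11.15, pandas 2.3.3, numpy 2.4.6 and matplotlib 3.10.9.

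A gene with several probe sets was represented by the brightest. All 10 genes are described in every genotype, while related lists give counts and values for at most 4 genes that passed in 2 comparisons with the control or in any between mutants, by absolute change. For cn, st, cd and kar, 2 genes of most similar course are named. Members and lists were chosen with earlier results of these data known. Alternatives were the replicate number as a block, only the groups compared, trend and robust priors, a filter below the 40th percentile, centring on the array median or on brighter probe sets, cyclic loess, array weights, a minimum of 1.5-fold, averaging probe sets within genes, and leaving out each array or 2 arrays together. Arrays give no depth, so their number limits the precision. Whether replicates came from separate groups of flies is known only from the labels calling them biological, and a difference in signal between probe sets is not a difference in abundance. Array medians ran from 5.71 to 6.14. Sequences and promoters were not used here.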

Additional observations from a re-analysis of the deposited data

Results flagged for a closer look

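In 8 of the 10 genes the double mutant's change from the control differed from the sum of the single mutants' changes by a test of that difference in the limma fit. The term was 0.62 ± 0.12 for st (log2 scale, standard error, adjusted p = 0.00111), -0.58 ± 0.15 for cd (adjusted p = 0.00888), -0.51 ± 0.11 for kar (adjusted p = 0.00276) and -1.01 ± 0.13 for g (adjusted p = 8.43e-05). It was -0.57 ± 0.10 for rb (adjusted p = 0.000746), -0.40 ± 0.13 for cm (adjusted p = 0.0212), -0.29 ± 0.10 for or (adjusted p = 0.0283) and -0.89 ± 0.14 for car (adjusted p = 0.000227). The share of all probe sets with a called term was 40.6%. The terms of st, g and car passed under every alternative tried. That of cm was lost without control replicate 1, egg replicate 1 or double mutant replicate 2 (adjusted p = 0.0522 to 0.0529), and that of or without any of 7 arrays (control 1, egg 1 or 2, Su(var)3-9 1 or 3, double mutant 1 or 3, adjusted p = 0.0504 to 0.0711). Under cyclic loess the terms of cd, kar, rb and cm were lost (adjusted p = 0.0789, 0.106, 0.0664 and 0.657) and that of or turned to 0.03, and centring on brighter probe sets lost those of cm and or (adjusted p = 0.112 and 0.156). Dixon's test for single arrays that stand apart was not run on the values of the 10 genes, since groups of 3 are not tested.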

How the results depend on the processing

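Of 70 gene-by-comparison results, 45 kept their side of the threshold under every alternative other than the 1.5-fold minimum, which was applied to counts of calls alone. A change of sign where neither fit made a call was not counted, as for cd in the double against the egg mutant (-0.10 to 0.12). Of 1523 single checks, 1460 left the call as it was, 39 lost it with the sign kept and 17 gained it with the sign kept. In 7 the sign of the change turned as a call was lost (or and kar) or gained (st), and none turned into the opposite call. The cause was not tested. Cyclic loess turned or to -0.0867, -0.0179 and -0.0781 in the egg, Su(var)3-9 and double mutants and its interaction to 0.0265, kar in the double mutant to -0.0934 and st in the double mutant to -0.2426, and centring on the array median turned st in the Su(var)3-9 mutant to 0.28. Of the 10 genes, cyclic loess called 5 and 5 against the control (egg, Su(var)3-9) and 3 for the interaction. With a 1.5-fold minimum, calls fell to 4, 2 and 3 against the control (egg, Su(var)3-9, double), to 0 for the double and 0 for the Su(var)3-9 mutant against the egg mutant, and to 3 for the interaction, fewer by construction. Centring on the array median called 2 genes between the double and egg mutants and 3 between the egg and Su(var)3-9 mutants.

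Among all probe sets, the 1.5-fold minimum left 4931, 4732 and 4728 calls against the control (9550, 11580 and 10827 without it), 1297 of 2915 for double against egg, 392 of 971 for double against Su(var)3-9, 1887 of 5132 for egg against Su(var)3-9 and 4805 of 7627 for the interaction. Median centring gave 17374 calls for Su(var)3-9, 17151 for the double mutant, 4745 for double against egg, 8193 for egg against Su(var)3-9 and 11988 for the interaction. Array weights gave 4905 calls for double against egg. For double against Su(var)3-9, 564 remained when Su(var)3-9 replicate 3 was left out along with replicate 2 of the double mutant, and 610 to 1148 with each array left out, the lowest without double mutant replicate 2 and 622 without Su(var)3-9 replicate 2. The share of calls that were higher was 62.8%, 71.9% and 70.1% against the control, 80.4%, 86.8% and 86.6% on the array median, 51.0%, 60.8% and 58.0% on brighter probe sets and 37.8%, 38.7% and 37.3% under cyclic loess. It was 50.9% for double against egg (79.3% on the array median), 49.1% for egg against Su(var)3-9 (19.2%) and 38.8% for the interaction (19.8%, and 66.6% under cyclic loess).

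Same-numbered arrays did not deviate together (18 correlations from -0.36 to 0.10), so the numbers give no pairing. With the replicate number as a block, 8, 8 and 7 genes were called against the control, 1 for double against egg, 0 for double against Su(var)3-9, 1 for egg against Su(var)3-9 and 8 for the interaction, and the call lost was kar in the double mutant. Leaving out each array gave 8 to 9, 8 to 8 and 7 to 8 genes against the control and 6 to 8 for the interaction. The interaction could not be fitted with only 2 groups, cn fell below the filter on dim probe sets, and a technical pair could not be averaged.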
